A study of Mus musculus with 14 samples.

Results

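Fezf2, Bcl11b, Pou3f1, Crym, Foxp2, Syt6, Tle4, Cplx3, Nxph4 and Ccn2 are 10 genes used as markers of neurons in the deep layers of the cerebral cortex. They were taken by symbol, through their Ensembl identifiers on the mouse build GRCm38, from the 53465 genes of the deposited count tables, and all 10 had a row. Bulk RNA of the anterior cingulate cortex, which lies along the frontal midline, was sequenced in 14 libraries. The 4 groups were AKR/J mice (AKR) after observational fear conditioning, called OFL in the labels (3 libraries), C57BL/6NJ mice (B6N) after OFL (3 libraries), naive AKR mice (4 libraries) and naive B6N mice (4 libraries). In observational fear conditioning an animal looks on while a companion is shocked. AKR/J and C57BL/6NJ are inbred strains, and the labels name no transgene, engineered allele or drug in any group. They give neither age nor sex, and they leave unsaid whether each library is a different animal. A p-value here thus measures the spread between libraries, which may be technical. The series title concerns ARNT2, somatostatin interneurons of the prefrontal cortex and empathy, and the deep layer genes describe the output neurons of the same tissue.

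Most axons that leave the cortex for other brain structures arise in its deep layers. Layer 5 output neurons project to the brainstem, the midbrain and the spinal cord, layer 6 corticothalamic neurons project to the thalamus, and layer 6b is what remains of the subplate, an early-born layer beneath the cortical plate. Fezf2 is a zinc finger transcription factor that specifies layer 5 output neurons, and Bcl11b (CTIP2) acts downstream of it in the growth of their axons. Tle4 is a corepressor and Foxp2 a forkhead factor of corticothalamic neurons, while Cplx3, Nxph4 and Ccn2 mark layer 6b. None of these genes is exclusive to the layer it marks: Bcl11b and Crym are also expressed in striatal neurons, Cplx3 in LAMP5 interneurons and Ccn2 in vascular cells and fibroblasts. In bulk RNA, fewer cells of a type and less RNA per cell cannot be told apart.

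Total counts per library were 13487311 to 14526253 in the OFL set and 19073921 to 25780227 in the naive set. The spread between libraries of a group was small, with a common biological coefficient of variation of 0.0456 in OFL libraries and 0.0446 in naive libraries. Markers of cortical excitatory neurons were abundant in every group, with Slc17a7, the main vesicular glutamate transporter of the cortex, at 736 ± 28.99 CPM in AKR OFL, 707 ± 11.1 CPM in B6N OFL, 1365 ± 80.7 CPM in AKR naive and 1319.6 ± 59.2 CPM in B6N naive libraries (SD, n = 3, 3, 4 and 4). The OFL and naive libraries were deposited as separate tables and differed in their classes of RNA. Small nucleolar RNA took 0.0268% to 0.0298% of the counts in OFL libraries and 0.00468% to 0.00537% in naive libraries, and protein-coding genes took 94.8% to 95.1% in OFL libraries and 97.3% to 97.6% in naive libraries. Strains were therefore compared within each set, and differences between OFL and naive libraries cannot be told apart from differences between the library sets.

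Levels are CPM, counts relative to the library total after scaling by edgeR's trimmed mean of M-values (TMM), and genes were compared with each other only after division by exon length. Crym, which encodes a thyroid hormone binding protein of the cytoplasm, had the highest level per kilobase of the 10 in every group: 12.7 CPM per kilobase in AKR OFL, 19.4 in B6N OFL, 18.6 in AKR naive and 24.8 in B6N naive libraries. Tle4 and Bcl11b followed it in the OFL libraries, at 11.2 and 10.5 CPM per kilobase in AKR and 14.2 and 11.3 in B6N, whereas Fezf2 came second in the naive libraries, at 17.6 in AKR and 20.1 in B6N. Foxp2 and Nxph4 were the lowest in all 4 groups, and Nxph4 had as few as 3 reads in a library. The spread between libraries was widest for these low genes and for Ccn2 in naive AKR, where the coefficient of variation was 46.8% for Nxph4, 36.7% for Ccn2 and 30.3% for Foxp2.

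**Figure D1:**
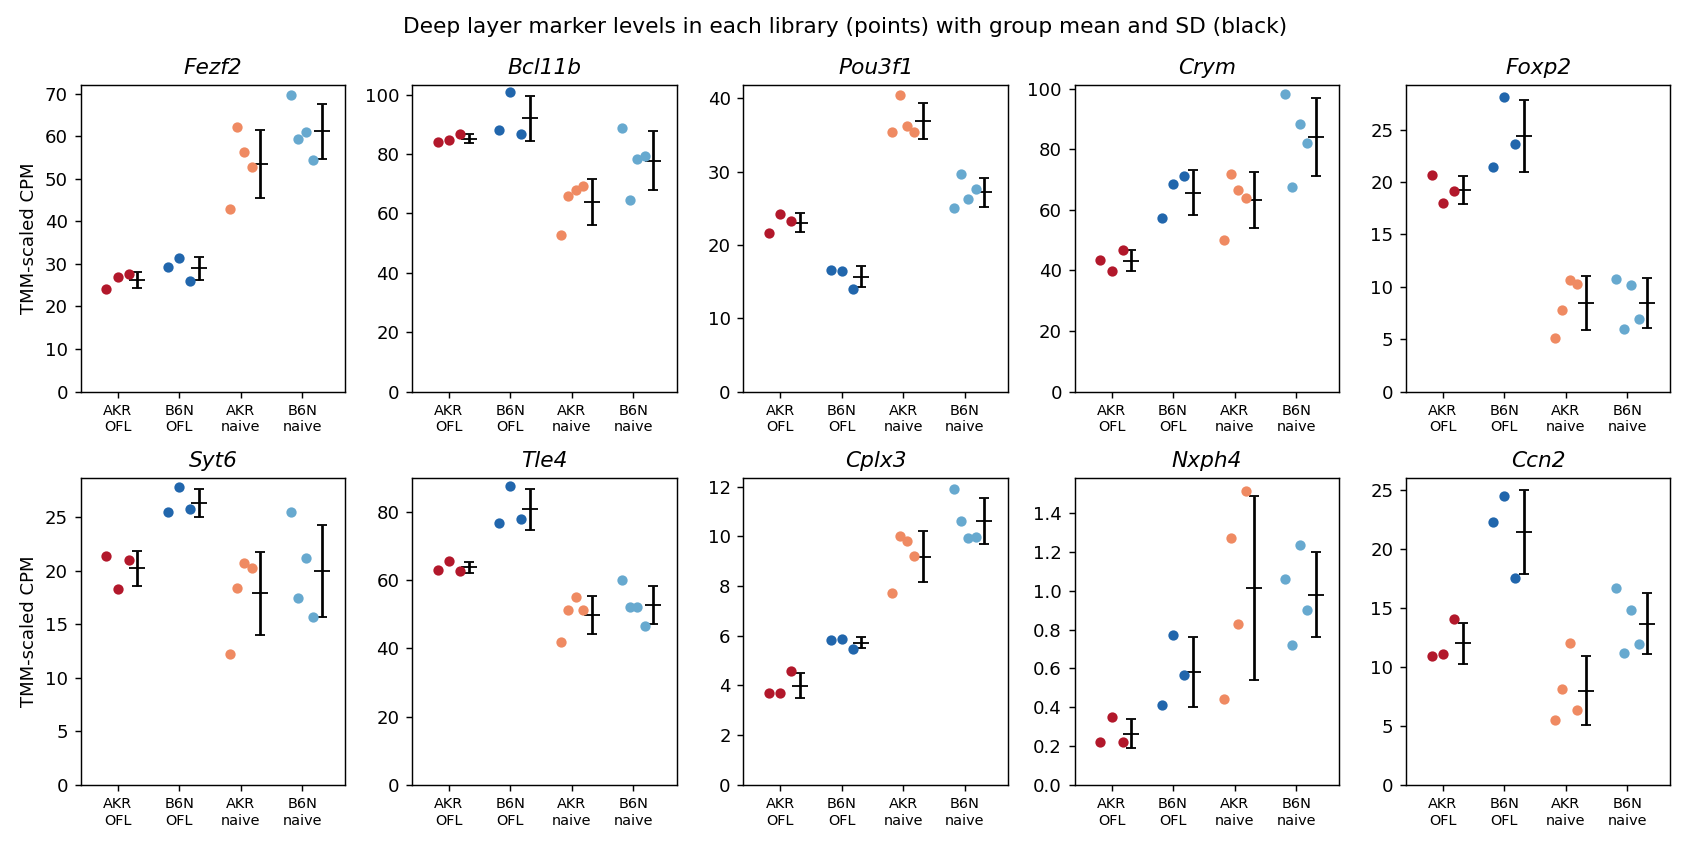
TMM-scaled CPM (y axis, a separate scale for each gene) of the 10 deep layer markers in each library (points) of the 4 groups (x axis), with the group mean and SD in black. Pou3f1 lay higher in AKR than in B6N in both conditions with no overlap, while Crym, Ccn2, Tle4, Syt6, Foxp2 and Cplx3 lay lower in AKR than in B6N in the OFL libraries.

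The strain comparison asked how deep layer gene expression differs between AKR and B6N cortex. In the OFL libraries 7 of the 9 members tested differed, 1 higher and 6 lower in AKR, where 16.4% of all genes tested were called, 7.5% higher and 8.86% lower. Here called means an adjusted p under 0.05 in edgeR's quasi-likelihood F-test, with Benjamini-Hochberg adjustment over all genes tested, and differences are log2 values with their standard error (SE). Nxph4 had too few reads in this set to pass the expression filter. The libraries of the strains did not overlap for 9 of 10 members, all but Fezf2, against 31.2% of all genes (16.3% higher and 14.9% lower). The members' share was above that over all genes, in a list drawn up with earlier results of these data known. The median difference of the 9 tested members was -0.35 on the log2 scale, and that of all genes was 0.0024. Without B6N OFL library 2 the members called were 5, as they were without AKR OFL library 2 (5), and without B6N OFL library 2 1934 of all genes were called in place of 2943.

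In the naive libraries 4 of 10 members differed, 1 higher and 3 lower in AKR, where 37.8% of all genes were called, 18.3% higher and 19.5% lower. That count is close to the background share and is no result about the members as a set. The libraries of the strains did not overlap for 1 member, Pou3f1, against 34.7% of all genes (16.8% higher and 17.9% lower). The median difference of the 10 members was -0.17, and that of all genes was 0.0061. Pou3f1, Crym and Ccn2 were called in the same direction in both sets of libraries.

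**Figure D2:**
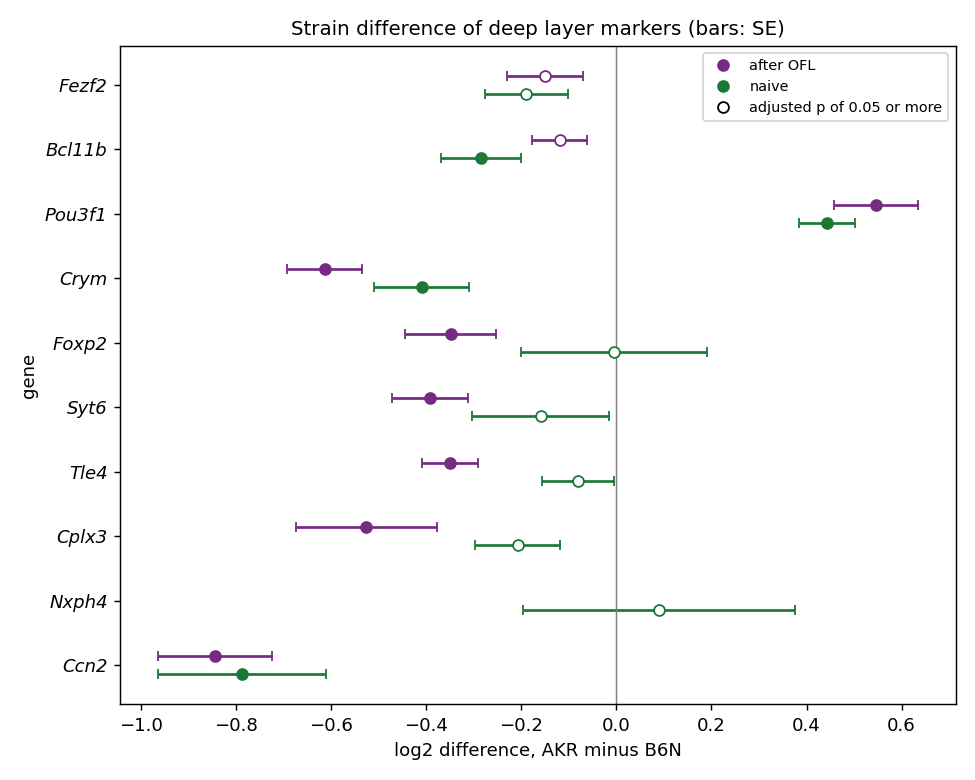
Log2 difference AKR minus B6N (x axis) of each deep layer marker (y axis) after OFL (purple) and in naive libraries (green), with bars for 1 SE and open circles for an adjusted p of 0.05 or more. Ccn2 and Crym stood left of 0 in both sets, Pou3f1 stood right of 0 in both, and the layer 6 genes Foxp2, Syt6 and Tle4 were called only in the OFL set; Nxph4 was tested only in the naive set.

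Pou3f1, a layer 5 gene, was the only member called higher in AKR in either set. Pou3f1 (ENSMUSG00000090125, chromosome 4, 124656807 to 124660655, plus strand) encodes a POU-domain transcription factor found in layer 5 output neurons and also known for its part in Schwann cell myelination. It stood at 21.7, 24.2 and 23.3 CPM in AKR OFL libraries, against 16.5, 16.5 and 14.02 CPM in B6N OFL libraries. Every AKR OFL library lay above every B6N OFL library, a difference of 0.55 (SE 0.087, edgeR adjusted p = 1.51e-04), or 1.46-fold. Naive levels were 35.4, 40.5, 36.3 and 35.4 CPM in AKR naive libraries, against 25.1, 29.7, 26.3 and 27.7 CPM in B6N naive libraries. Again the strains did not overlap, with a difference of 0.44 (SE 0.059, edgeR adjusted p = 1.33e-05), or 1.36-fold. An antisense gene, Gm2164, covers 330 of its exonic bases (8.57%), and because it is not known whether reads were counted by strand, reads of the overlap cannot be assigned for certain. Gm2164 had 42 to 52 reads in AKR OFL, 26 to 34 in B6N OFL, 28 to 41 in AKR naive and 17 to 30 in B6N naive libraries. In CPM it was higher in AKR in both sets, as was Pou3f1. The lowest Pou3f1 library had 198 reads. Since 330 of the 424 exonic bases of Gm2164 are shared, these counts do not bound the part of the overlap.

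Crym (ENSMUSG00000030905, chromosome 7, 120186380 to 120202111, minus strand) went the other way. It stood at 43.3, 39.7 and 46.7 CPM in AKR OFL libraries, against 57.3, 68.7 and 71.1 CPM in B6N OFL libraries. The AKR OFL libraries were all below the B6N OFL libraries, with a difference of -0.61 (SE 0.079, edgeR adjusted p = 1.14e-05), or 1.53-fold lower in AKR. Naive levels were 50.1, 71.9, 66.7 and 64.02 CPM in AKR naive libraries, against 98.3, 67.6, 88.3 and 81.9 CPM in B6N naive libraries. The naive groups overlapped, since B6N naive library 2 fell within the AKR range, and the difference was -0.41 (SE 0.10, edgeR adjusted p = 0.00346). Among 11 genes regulated by or handling thyroid hormone, 3 were higher and 0 lower of 10 tested in the OFL set, and 3 were higher and 3 lower of 11 in the naive set. The OFL calls were Itih3 at 0.60 (SE 0.066), Nrgn at 0.29 (SE 0.058) and Slco1c1 at 0.20 (SE 0.060). The naive calls included Itih3 at 0.82 (SE 0.057) and Nrgn at 0.30 (SE 0.038), both higher in AKR. Lower in naive AKR were the deiodinase gene Dio2 at -0.98 (SE 0.12) and the transcription factor gene Klf9 at -0.25 (SE 0.045).

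Fezf2 (ENSMUSG00000021743, chromosome 14, 12342094 to 12348189, minus strand) was not called between strains in either set. It stood at 24.1, 26.95 and 27.6 CPM in AKR OFL libraries, against 29.3, 31.5 and 26.05 CPM in B6N OFL libraries. The OFL groups overlapped, with a difference of -0.15 (SE 0.081, edgeR adjusted p = 0.236). Without OFL, Fezf2 stood at 42.96, 62.1, 56.3 and 52.7 CPM in AKR naive libraries, against 69.8, 59.2, 60.98 and 54.4 CPM in B6N naive libraries. These groups overlapped too, and the difference was -0.19 (SE 0.087, edgeR adjusted p = 0.0980). It passed the threshold without AKR naive library 2 (edgeR adjusted p = 0.0223), without B6N naive library 4 (0.0472) and with no filter on low counts (8.12e-04).

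Bcl11b (ENSMUSG00000048251, chromosome 12, 107910403 to 108003602, minus strand) stood at 84.01, 84.6 and 86.8 CPM in AKR OFL libraries, against 88.2, 101 and 86.9 CPM in B6N OFL libraries. Its lowest B6N OFL library lay just above the highest AKR OFL library, and the difference was -0.12 (SE 0.058, edgeR adjusted p = 0.183). Naive Bcl11b levels were 52.6, 65.7, 67.8 and 69.3 CPM in AKR naive libraries, against 88.8, 64.6, 78.4 and 79.5 CPM in B6N naive libraries. The naive groups overlapped, yet the difference was called, at -0.28 (SE 0.085, edgeR adjusted p = 0.0134). That call ended without B6N naive library 1 (edgeR adjusted p = 0.0602) and with DESeq2 in place of edgeR (adjusted p = 0.0854).

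The 3 layer 6 corticothalamic members were all lower in AKR in the OFL libraries, and none was called in the naive libraries. Tle4 (ENSMUSG00000024642, chromosome 19, 14448150 to 14598051, minus strand), a Groucho-family corepressor, stood at 63.03, 65.5 and 62.8 CPM in AKR OFL libraries, against 76.8, 87.7 and 78.1 CPM in B6N OFL libraries. The strains did not overlap and had a difference of -0.35 (SE 0.059, edgeR adjusted p = 2.54e-04), or 1.27-fold lower in AKR. Naive Tle4 levels were 41.97, 51.2, 55.02 and 51.4 CPM in AKR naive libraries, against 60.05, 52.1, 52.2 and 46.7 CPM in B6N naive libraries. Those levels overlapped, with a difference of -0.080 (SE 0.076, edgeR adjusted p = 0.439).

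Syt6 (ENSMUSG00000027849, chromosome 3, 103575231 to 103645569, plus strand), a synaptotagmin of the membrane-trafficking family, stood at 21.4, 18.3 and 20.96 CPM in AKR OFL libraries, against 25.4, 27.9 and 25.8 CPM in B6N OFL libraries. The groups did not overlap and the difference was -0.39 (SE 0.081, edgeR adjusted p = 0.00175). That call ended when all 14 libraries were fitted together (edgeR adjusted p = 0.0895). Naive Syt6 levels were 12.3, 18.4, 20.7 and 20.2 CPM in AKR naive libraries, against 25.5, 17.5, 21.2 and 15.7 CPM in B6N naive libraries. These levels overlapped widely, with a difference of -0.16 (SE 0.14, edgeR adjusted p = 0.420). The gene Atg4a-ps lies over 505 exonic bases of Syt6 on the opposite strand, and it had at most 3 reads in any library.

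Foxp2 (ENSMUSG00000029563, chromosome 6, 14901349 to 15441977, plus strand) stood at 20.7, 18.04 and 19.1 CPM in AKR OFL libraries, against 21.5, 28.1 and 23.6 CPM in B6N OFL libraries. The groups did not overlap, although AKR OFL library 1 came close to B6N OFL library 1, and the difference was -0.35 (SE 0.10, edgeR adjusted p = 0.0154). That call ended without AKR OFL library 2 (edgeR adjusted p = 0.0618), without B6N OFL library 2 (0.149) and in the fit of all 14 libraries (0.193). Naive levels were 5.12, 7.76, 10.6 and 10.3 CPM in AKR naive libraries, against 10.8, 5.94, 10.2 and 6.91 CPM in B6N naive libraries. The naive groups covered the same range, and the difference was -0.0047 (SE 0.20, edgeR adjusted p = 0.988), or 0.0066 with upper-quartile scaling.

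Promoter sequence is shown for Syt6, Tle4 and Cplx3, which were lower in AKR in the OFL set and have an entry in RefSeq's promoter windows. By symbol, windows were matched for 5 of the 10 members, and not for Foxp2, Crym, Nxph4, Ccn2 and Pou3f1. Syt6 has 3 windows and Tle4 has 2, of which the one nearest the annotated gene start is shown and the others were not searched for these genes. Each sequence is the 250 bases before the RefSeq transcription start on GRCm38.p6, read 5′ to 3′ on the strand of the gene. Capitals mark matches to the GC box GGGCGG on either strand, the binding sequence of SP1-type factors. Syt6 lies at chr3:103574995-103575244, plus strand, Tle4 at chr19:14598184-14598433, minus strand and Cplx3 at chr9:57606282-57606531, minus strand.
Syt6: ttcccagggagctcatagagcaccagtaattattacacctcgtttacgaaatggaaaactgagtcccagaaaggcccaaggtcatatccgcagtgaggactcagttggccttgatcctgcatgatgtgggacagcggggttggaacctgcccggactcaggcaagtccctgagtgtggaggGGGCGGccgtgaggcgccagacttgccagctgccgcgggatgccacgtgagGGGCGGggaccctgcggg
Tle4: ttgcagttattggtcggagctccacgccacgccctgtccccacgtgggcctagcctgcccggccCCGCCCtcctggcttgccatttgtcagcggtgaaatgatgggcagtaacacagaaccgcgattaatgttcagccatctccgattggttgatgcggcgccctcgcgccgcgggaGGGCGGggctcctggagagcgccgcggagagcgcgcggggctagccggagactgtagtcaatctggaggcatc
Cplx3: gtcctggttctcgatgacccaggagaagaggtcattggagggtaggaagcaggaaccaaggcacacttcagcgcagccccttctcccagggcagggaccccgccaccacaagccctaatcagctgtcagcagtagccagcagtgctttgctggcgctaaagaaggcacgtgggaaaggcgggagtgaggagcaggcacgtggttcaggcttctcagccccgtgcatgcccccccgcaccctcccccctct
The Syt6 and Tle4 windows held 2 GC boxes each and the Cplx3 window held none, and 32.7% of the 32851 windows of the same length held at least 1. None of the 3 held TATAAA (12.4% of all windows), the cAMP response sequence TGACG (17.8%), the T-box sequence GGTGTGA (3.33%) or the E-box CAGATG (14.4%). The share of G and C was 60.4% for Syt6, 65.2% for Tle4 and 62.8% for Cplx3, against a median of 52.4% over all windows. No GC box match overlapped a match to another of the 5 motifs, and a match describes the sequence alone.

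Of the layer 6b members, Ccn2 showed the widest strain difference among the members tested in each set. Ccn2 (ENSMUSG00000019997, chromosome 10, 24595442 to 24598683, plus strand), also called Ctgf, encodes a secreted matrix protein. It stood at 10.97, 11.1 and 14.05 CPM in AKR OFL libraries, against 22.3, 24.6 and 17.6 CPM in B6N OFL libraries. The AKR OFL libraries all lay below the B6N OFL libraries, a difference of -0.84 (SE 0.12, edgeR adjusted p = 3.59e-05), or 1.80-fold lower in AKR. In the naive set it stood at 5.46, 8.14, 12.1 and 6.32 CPM in AKR naive libraries, against 16.7, 11.2, 14.9 and 11.98 CPM in B6N naive libraries. Only AKR naive library 3 reached into the B6N naive range, and the difference was -0.79 (SE 0.18, edgeR adjusted p = 0.00187), or 1.73-fold lower.

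An overlapping noncoding gene of the opposite strand, Gm15270, covers 665 exonic bases of Ccn2 (23.2%). Its reads were 6 to 11 in AKR OFL, 13 to 29 in B6N OFL, 4 to 5 in AKR naive and 8 to 12 in B6N naive libraries, lower in AKR as for Ccn2, and reads of the shared bases cannot be assigned without strand. Vascular markers did not move one way: of 12 endothelial and mural genes 4 were higher and 3 lower in AKR OFL, and 4 higher and 4 lower of 11 tested in AKR naive libraries. The smooth muscle gene Acta2 was lower in AKR at -0.87 (SE 0.12) in OFL and -0.81 (SE 0.17) in naive libraries. Myh11, a smooth muscle myosin gene, was lower in AKR at -0.67 (SE 0.12) in OFL and -0.44 (SE 0.14) in naive libraries. The pericyte gene Rgs5 was higher in AKR OFL libraries at 0.26 (SE 0.047), as was Cldn5, a tight junction gene, at 0.34 (SE 0.092). Both were called higher in AKR naive libraries too, Rgs5 at 0.20 (SE 0.049) and Cldn5 at 0.27 (SE 0.059). In naive libraries the endothelial receptor gene Kdr at 0.74 (SE 0.079) and the pericyte receptor gene Pdgfrb at 0.54 (SE 0.059) were higher in AKR, and Ly6c1 was lower at -0.63 (SE 0.072). Kdr at 0.31 (SE 0.090) and Pdgfrb at 0.22 (SE 0.074) were also called higher in AKR OFL libraries, where Ly6c1 was not called. Among 8 genes induced through YAP or SRF, as Ccn2 is in many cells, 1 of 7 was lower in AKR OFL and 2 of 7 were higher in AKR naive libraries. Amotl2 had -0.33 (SE 0.084) in OFL libraries, and Axl had 0.17 (SE 0.050) and Ajuba 0.46 (SE 0.16) in naive libraries. The part of vascular cells in the Ccn2 difference was not tested.

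Cplx3 (ENSMUSG00000039714, chromosome 9, 57599992 to 57606281, minus strand), a complexin that acts at the synaptic vesicle, stood at 3.71, 3.69 and 4.59 CPM in AKR OFL libraries, against 5.83, 5.88 and 5.45 CPM in B6N OFL libraries. The groups did not overlap and the difference was -0.53 (SE 0.15, edgeR adjusted p = 0.0182). With 50 to 85 reads per OFL library, that call ended without AKR OFL library 1 (edgeR adjusted p = 0.0813), AKR OFL library 2 (0.0699) or B6N OFL library 2 (0.0713), and with DESeq2 (adjusted p = 0.142). In the naive set Cplx3 stood at 7.73, 10.002, 9.79 and 9.21 CPM in AKR naive libraries, against 11.9, 10.6, 9.92 and 9.96 CPM in B6N naive libraries. AKR naive library 2 lay just inside the B6N naive range, and the difference was -0.21 (SE 0.090, edgeR adjusted p = 0.0793). LAMP5 interneurons are another source of Cplx3. Of 7 markers of these cells, 0 were called higher in AKR OFL libraries. The 2 called lower there were Id2 at -0.67 (SE 0.061) and Ndnf at -0.29 (SE 0.10). In AKR naive libraries 2 of the markers were called higher and 2 lower. The list's median strain difference was 0.00080 in the OFL set and -0.0078 in the naive set. The summed level of that list was 406 to 453 CPM in AKR OFL, 429 to 458 in B6N OFL, 457 to 480.4 in AKR naive and 432 to 514 in B6N naive libraries, and its part in the Cplx3 difference was not tested.

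Nxph4 (ENSMUSG00000040258, chromosome 10, 127525473 to 127534559, minus strand), a neurexophilin that binds alpha-neurexins, was close to the limit of detection. It had 3, 5 and 3 reads in AKR OFL libraries, against 6, 11 and 8 reads in B6N OFL libraries. The OFL groups did not overlap, but Nxph4 did not pass the expression filter of this set, and with no filter it was not among the 7 members called. In the naive set it had 9, 30, 16 and 35 reads in AKR, against 27, 16, 25 and 21 in B6N. Per library size these were 0.263 ± 0.0738 CPM in AKR OFL and 0.583 ± 0.180 CPM in B6N OFL libraries (SD, n = 3 each), and 1.01 ± 0.475 CPM in AKR naive and 0.979 ± 0.220 CPM in B6N naive libraries (SD, n = 4 each). AKR naive libraries spanned more than the B6N naive range, and the difference was 0.090 (SE 0.29, edgeR adjusted p = 0.837).

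Other genes of the same layers were called in either direction. Of 14 other layer 5 output and near-projecting genes, 0 were higher and 3 lower in AKR OFL libraries (median -0.10), and 1 was higher and 7 lower in AKR naive libraries (median -0.24). The 3 lower after OFL were lower in the naive set too, namely the vesicular transporter gene Slc17a8 at -1.03 (SE 0.19) in OFL and -1.07 (SE 0.13) in naive libraries, the zinc finger gene Tshz2 at -0.63 (SE 0.16) in OFL and -0.96 (SE 0.14) in naive libraries, and the thyrotropin-releasing hormone receptor gene Trhr at -0.84 (SE 0.22) in OFL and -0.80 (SE 0.19) in naive libraries. Slc17a8 averaged 2.49 ± 0.607 CPM in AKR OFL and 5.09 ± 0.592 CPM in B6N OFL libraries (SD, n = 3 each), and 2.43 ± 0.454 CPM in AKR naive and 5.11 ± 0.243 CPM in B6N naive libraries (SD, n = 4 each). Deptor, an mTOR-binding gene of layer 5, was lower in naive AKR at -0.45 (SE 0.048).

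Of 11 other layer 6 corticothalamic genes, 1 was higher and 2 were lower in AKR OFL libraries (median 0.034), and 1 was higher and 0 lower in AKR naive libraries (median 0.029). Sox5, a transcription factor gene of early deep layer neurons, was higher in AKR at 0.28 (SE 0.058) in OFL and 0.28 (SE 0.048) in naive libraries. Rprm at -0.48 (SE 0.13) and Hs3st4 at -0.29 (SE 0.081) were lower in AKR OFL libraries, in the direction of Tle4, Syt6 and Foxp2. Among other layer 6b genes, 0 were higher and 1 lower of 9 tested in AKR OFL and 2 higher and 3 lower of 10 in AKR naive libraries. The dopamine receptor gene Drd5 was lower in AKR at -1.65 (SE 0.28) in OFL and -1.98 (SE 0.21) in naive libraries, and the orexin receptor gene Hcrtr2 was lower in naive AKR at -0.61 (SE 0.14), while Lpar1 at 0.32 (SE 0.070) and Kcnab1 at 0.14 (SE 0.034) were higher there. Upper layer genes were 4 higher and 2 lower of 14 in AKR OFL and 5 higher and 3 lower in AKR naive libraries, with Cux2 higher at 0.29 (SE 0.053) in OFL and 0.32 (SE 0.044) in naive libraries. Pan-glutamatergic genes were 2 higher and 0 lower of 7 in AKR OFL and 1 higher and 3 lower in AKR naive libraries.

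Markers of tissue beside the cingulate cortex differed between the strains as well. Striatal neuron genes, which share Bcl11b and Crym with the deep layers, summed to 238 to 247 CPM in AKR OFL and 229 to 247 CPM in B6N OFL libraries, and to 208 to 234 CPM in AKR naive and 249 to 274 CPM in B6N naive libraries. The naive sums did not overlap, and 3 of 11 genes tested were lower and 0 higher in AKR. The lower ones included Pde10a at -0.43 (SE 0.074) and Adora2a at -0.50 (SE 0.15). Genes of the lateral septum and tenia tecta summed to 167 to 189.7 CPM in AKR OFL and 216 to 232 CPM in B6N OFL libraries, and to 129 to 145 CPM in AKR naive and 152 to 164 CPM in B6N naive libraries. The sums did not overlap in either set, but in the OFL set this came mostly from the channel gene Trpc6, at 29.2 ± 3.34 CPM in AKR OFL and 65.4 ± 6.75 CPM in B6N OFL libraries (SD, n = 3 each). The list's median difference was -0.0066 in OFL libraries, with 1 of 7 lower and 0 higher, and -0.27 in naive libraries, with 3 lower and 1 higher. Trpc6 was lower in AKR at -1.17 (SE 0.085) in OFL and -0.49 (SE 0.071) in naive libraries, with Trpc4 at -0.33 (SE 0.059) and Dgkg at -0.35 (SE 0.066) lower and Zic2 at 0.20 (SE 0.070) higher in naive AKR. Claustrum and endopiriform genes were 0 higher and 2 lower of 6 in AKR OFL and 1 higher and 2 lower in AKR naive libraries. Oligodendrocyte genes were 0 higher and 2 lower of 9 in AKR OFL and 3 higher and 2 lower in AKR naive libraries, and meningeal genes were 0 higher and 0 lower of 7 in AKR OFL and 2 higher and 1 lower of 8 in AKR naive libraries. No gene of these lists was at 0 in every library, but the striatal genes Isl1 and Six3 were at the floor. Isl1 had counts only in AKR OFL libraries, at most 0.073 CPM, and Six3 only in B6N naive libraries, at most 0.135 CPM. The part of neighbouring tissue in the members' strain differences was not tested.

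Within a group, members deviated in the same direction in several libraries. AKR naive library 1 was the lowest of its group for all 10 members, with a median deviation from the group mean of -0.31 on the log2 scale. In that library 28 of 35 other deep layer genes also lay below their group mean (median -0.12), while 10 of 14 upper layer genes lay above theirs. The low levels were not particular to deep layer genes. Below their mean were also 9 of 13 striatal genes (median -0.12) and 5 of 7 pan-glutamatergic genes (median -0.10). B6N naive library 1 was the highest of its group for 8 members (median 0.20), with 24 of 35 other deep layer genes above and 11 of 14 upper layer genes below the mean. B6N OFL library 2 was the highest of its group for 8 members (median 0.12), with 23 of 35 other deep layer genes above and 11 of 14 upper layer genes below. Striatal and pan-glutamatergic medians were 0.031 and 0.012 in B6N naive library 1, and 0.030 and 0.029 in B6N OFL library 2. B6N naive library 2, low for 8 members (median -0.21), held all 9 oligodendrocyte genes above their mean (median 0.39), whereas the 35 other deep layer genes were split 17 above and 18 below and upper layer genes 8 above and 6 below. Of the 9 oligodendrocyte genes 0 were above the mean in AKR naive library 1 (median -0.050), 0 in B6N naive library 1 (median -0.15) and 5 in B6N OFL library 2 (median 0.0072).

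**Figure D3:**
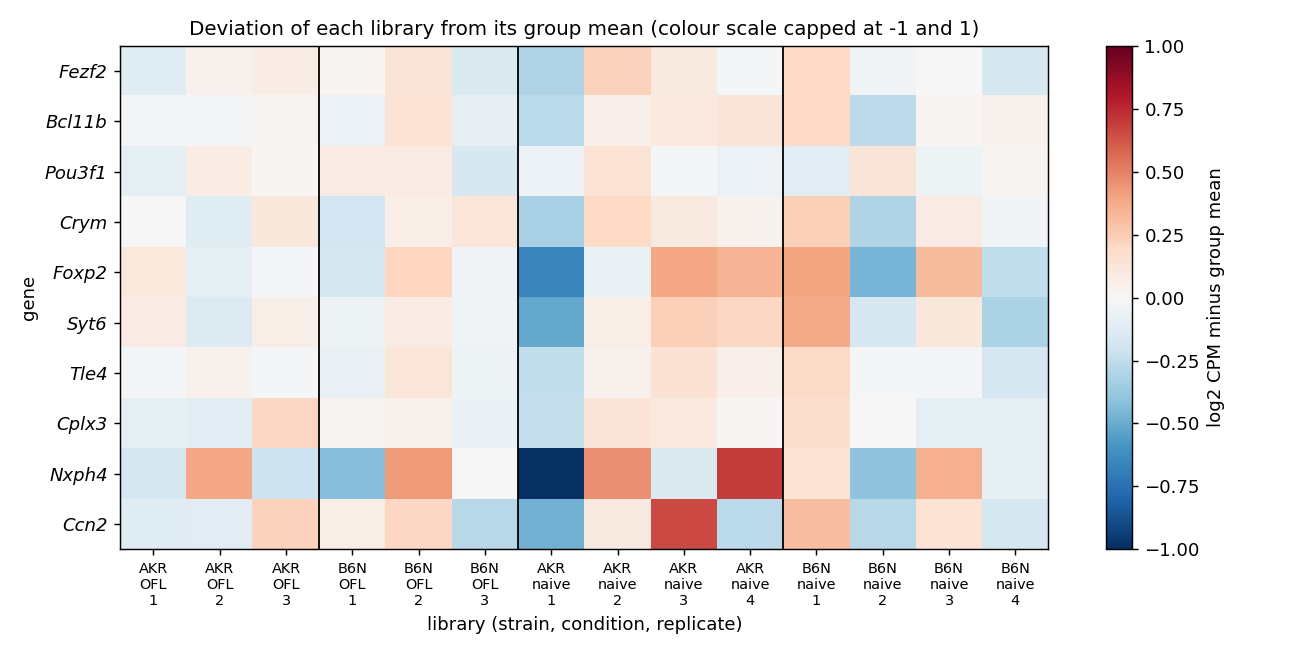
Deviation of each library (x axis) from its group mean, in log2 CPM, for the 10 deep layer markers (y axis), with red above and blue below the mean and the colour capped at -1 and 1. The column of AKR naive library 1 is blue for every gene, and the column of B6N OFL library 2 is red for every gene.

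**Figure D4:**
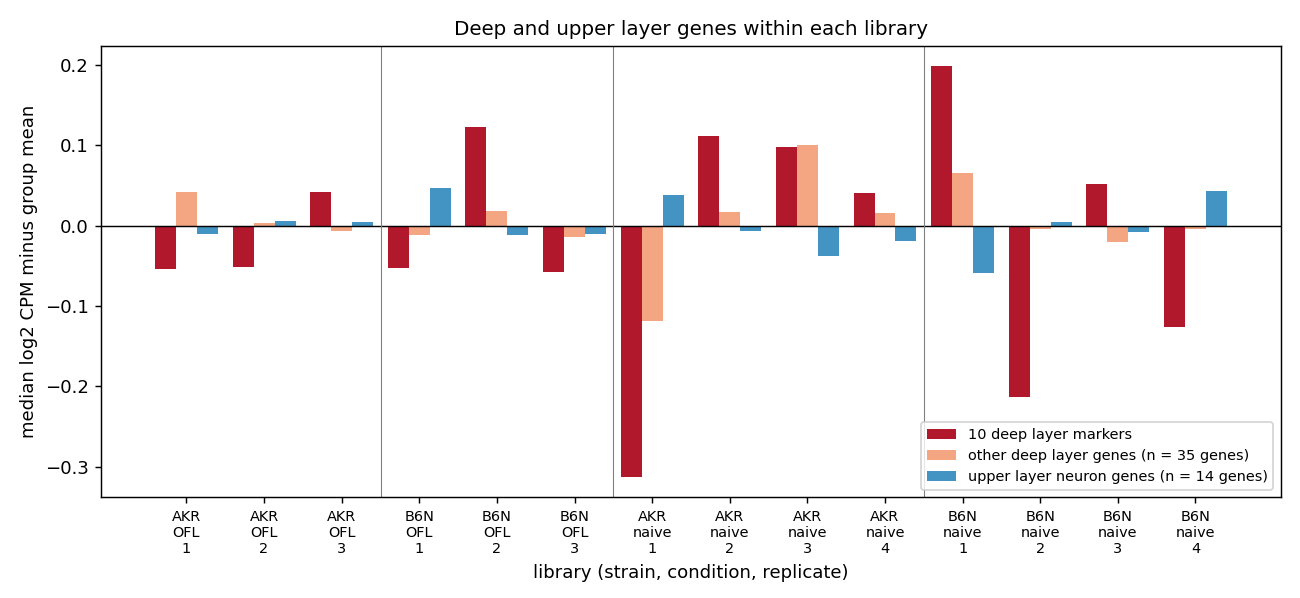
Median deviation from the group mean in log2 CPM (y axis) in each library (x axis) for the 10 deep layer markers, 35 other deep layer genes and 14 upper layer genes. In AKR naive library 1 the deep layer bars reach -0.31 and -0.12 and the upper layer bar 0.038, and in B6N naive library 1 the signs are turned round.

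The strain calls of Pou3f1, Crym and Ccn2 held in both sets as each library was left out in turn. With AKR naive library 1 left out, the naive differences were 0.46 for Pou3f1, -0.32 for Crym, -0.65 for Ccn2 and -0.20 for Bcl11b, all 4 called (edgeR adjusted p = 4.64e-05, 0.0121, 0.00872 and 0.0461). With B6N OFL library 2 left out, the OFL differences were 0.58 for Pou3f1, -0.58 for Crym, -0.74 for Ccn2, -0.29 for Tle4 and -0.35 for Syt6, all called (edgeR adjusted p = 0.00630 for Tle4 and 0.0216 for Syt6). The part of the cortical depth sampled in each library was not tested.

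The second comparison set OFL libraries against naive libraries within each strain. In AKR 9 of 10 members differed, 4 higher and 5 lower, where 78.7% of all genes were called, 39.8% higher and 38.8% lower. In B6N 9 of 10 differed, 5 higher and 4 lower, where 78.4% of all genes were called, 40% higher and 38.4% lower. The OFL and naive libraries did not overlap for 8 of 10 members in AKR, against 76.7% of all genes (38.9% higher and 37.8% lower), and for 6 of 10 in B6N, against 76.7% (39.2% higher and 37.4% lower). With so much of the transcriptome called, these counts are no result about the members, and what follows describes their directions. The condition coincides with the deposited table, so handling, library and condition cannot be told apart. Scaling on protein-coding genes alone moved differences upward relative to the values given here. The median shift over the 14938 protein-coding genes in both fits was 0.12 in AKR and 0.13 in B6N.

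Fezf2 and Bcl11b, which work in sequence in the same neurons, stood apart in opposite directions. Fezf2 was lower in OFL libraries, at 26.2 ± 1.86 CPM in AKR OFL against 53.5 ± 8.04 CPM in AKR naive libraries and 28.9 ± 2.74 CPM in B6N OFL against 61.1 ± 6.40 CPM in B6N naive libraries (SD, n = 3 and 4). These are differences of -1.03 (SE 0.10, edgeR adjusted p = 5.11e-10) in AKR and -1.08 (SE 0.10, edgeR adjusted p = 1.10e-10) in B6N. Bcl11b was higher in OFL libraries, at 0.41 (SE 0.084, edgeR adjusted p = 7.31e-05) in AKR, where the groups did not overlap, and 0.24 (SE 0.082, edgeR adjusted p = 0.00984) in B6N, where they did. The B6N call for Bcl11b ended without B6N OFL library 2 (edgeR adjusted p = 0.105) and was 0.37 when scaled on protein-coding genes. In both strains Pou3f1 was lower after OFL, without overlap, at -0.68 (SE 0.072, edgeR adjusted p = 2.87e-09) in AKR and -0.79 (SE 0.079, edgeR adjusted p = 7.44e-10) in B6N. Crym was lower as well, at -0.55 (SE 0.11, edgeR adjusted p = 6.08e-05) in AKR and -0.36 (SE 0.10, edgeR adjusted p = 0.00261) in B6N, and the B6N call ended on protein-coding scaling at -0.22 (edgeR adjusted p = 0.0652). Gm2164, which overlaps Pou3f1, was higher in OFL libraries. It had 3.06 to 3.78 CPM in AKR OFL against 1.45 to 2.02 CPM in AKR naive libraries. In B6N it had 1.82 to 2.33 CPM in OFL against 0.839 to 1.245 CPM in naive libraries. The strand setting of neither set is known, and the part of the overlap in the Pou3f1 difference was not tested.

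The corticothalamic members lay higher in OFL libraries. Foxp2 averaged 19.3 ± 1.33 CPM in AKR OFL against 8.44 ± 2.55 CPM in AKR naive libraries, and 24.4 ± 3.40 CPM in B6N OFL against 8.46 ± 2.40 CPM in B6N naive libraries (SD, n = 3 and 4). Its differences of 1.19 (SE 0.17, edgeR adjusted p = 6.74e-07) in AKR and 1.53 (SE 0.16, edgeR adjusted p = 3.62e-09) in B6N were the widest upward ones among the members, and no OFL library overlapped a naive one of its strain. Tle4 was higher by 0.35 (SE 0.076, edgeR adjusted p = 1.56e-04) in AKR and 0.61 (SE 0.074, edgeR adjusted p = 2.51e-08) in B6N, also without overlap. Syt6 was called in B6N at 0.40 (SE 0.13, edgeR adjusted p = 0.00902), and in AKR its difference was 0.17 (SE 0.14, edgeR adjusted p = 0.272). With DESeq2 the B6N difference did not pass (adjusted p = 0.0519).

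The layer 6b members split. Cplx3 was lower in OFL libraries without overlap, at 3.99 ± 0.512 CPM in AKR OFL against 9.18 ± 1.03 CPM in AKR naive and 5.72 ± 0.234 CPM in B6N OFL against 10.6 ± 0.930 CPM in B6N naive libraries (SD, n = 3 and 4). These are differences of -1.20 (SE 0.13, edgeR adjusted p = 2.17e-09) in AKR and -0.89 (SE 0.11, edgeR adjusted p = 6.33e-08) in B6N. In AKR the Nxph4 difference was -1.95 (SE 0.46, edgeR adjusted p = 3.81e-04), called lower in OFL libraries, and in B6N its difference was -0.74 (SE 0.37, edgeR adjusted p = 0.0708), which passed with no filter on low counts (edgeR adjusted p = 0.0356) and without B6N naive library 2 (0.0397). Ccn2 was higher, at 0.60 (SE 0.19, edgeR adjusted p = 0.00599) in AKR and 0.65 (SE 0.16, edgeR adjusted p = 6.06e-04) in B6N. The AKR call for Ccn2 ended without AKR OFL library 3 (edgeR adjusted p = 0.0543), and AKR naive library 3 overlapped the OFL range. In CPM the overlapping gene Gm15270 was also higher in OFL than in naive libraries of both strains. Its part in the Ccn2 difference was not tested, since the strand setting of neither set is known.

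**Figure D5:**
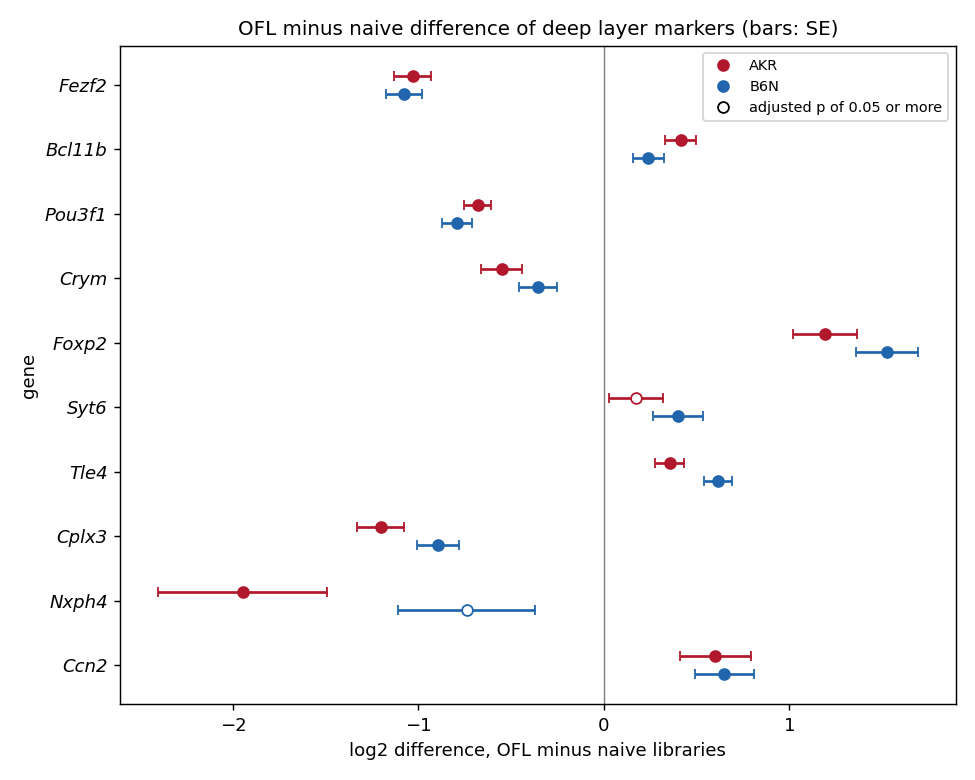
Log2 difference OFL minus naive (x axis) of each deep layer marker (y axis) in AKR (red) and B6N (blue), with bars for 1 SE and open circles for an adjusted p of 0.05 or more. Fezf2, Pou3f1, Crym, Cplx3 and Nxph4 lie left of 0 and Bcl11b, Foxp2, Syt6, Tle4 and Ccn2 right of 0 in both strains.

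Broader neuron genes and genes of other cell types also differed between the sets. All 7 pan-glutamatergic genes were lower in OFL libraries of both strains (median -0.89 in AKR and -0.90 in B6N). Striatal, LAMP5, vascular, meningeal and oligodendrocyte lists had negative medians too, against -0.0070 in AKR and -0.0019 in B6N over all genes. In AKR they were, in that order, -0.71, -0.61, -0.58, -0.45 and -0.60. In B6N they were -0.72, -0.35, -0.42, -0.21 and -0.18. The part of these shifts in the values of Fezf2, Cplx3, Pou3f1 and Crym was not tested. Other layer 5 genes were 5 higher and 5 lower of 14 in AKR and 5 higher and 5 lower in B6N, with Tshz2 higher at 2.95 (SE 0.19) in AKR and 2.62 (SE 0.16) in B6N. Other layer 6 corticothalamic genes were 4 higher and 5 lower of 11 in AKR and 5 higher and 5 lower in B6N, with Sox5 higher at 0.87 (SE 0.052) in AKR and 0.85 (SE 0.054) in B6N and Tbr1 lower at -0.80 (SE 0.056) in AKR and -0.87 (SE 0.057) in B6N. Other layer 6b genes were 5 higher and 3 lower of 10 in AKR and 4 higher and 1 lower in B6N.

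Set side by side, the 4 groups fell into a few orders of mean level, in which neighbours are called apart only where their libraries did not overlap. Pou3f1 was the only member with all neighbours apart, highest in AKR naive, then B6N naive, AKR OFL and B6N OFL. B6N OFL stood above all other groups with no overlap for Foxp2, Tle4 and Ccn2. For Bcl11b and Syt6 it had the highest mean and lay above AKR OFL, but overlapped a naive group. AKR OFL stood alone at the bottom for Crym, Cplx3 and Nxph4. For Fezf2 both naive groups lay above both OFL groups, and the strains overlapped within each. For Foxp2 and Tle4 AKR OFL came second, apart from the naive groups, which overlapped each other. The libraries of these groups come from 2 separately deposited tables.

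The interaction asked whether the OFL minus naive difference was unlike in the strains, and a shift between the library sets that both strains share cancels in it. With edgeR 0 of 10 members were called, where 5.15% of all genes were called, 3.61% higher and 1.54% lower. At an unadjusted p under 0.05 there was 1, Tle4, and DESeq2 called 0. Tle4 had a difference of -0.26 (SE 0.11, edgeR adjusted p = 0.185), from OFL minus naive differences of 0.35 in AKR and 0.61 in B6N. It passed the threshold without AKR naive library 1 at -0.33 (edgeR adjusted p = 0.0394) and with no filter on low counts at -0.25 (0.0425). By p the next were Nxph4, with a wide error, at -1.21 (SE 0.64, edgeR adjusted p = 0.343), Cplx3 at -0.31 (SE 0.18, edgeR adjusted p = 0.391), Bcl11b at 0.17 (SE 0.12, edgeR adjusted p = 0.489) and Foxp2 at -0.33 (SE 0.24, edgeR adjusted p = 0.525). The layer 6 genes that were called between strains only in the OFL libraries are therefore not shown to differ more there than in naive libraries. Among 35 other deep layer genes 1 was called, Deptor at 0.58 (SE 0.072, edgeR adjusted p = 8.74e-06).

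Genes of like pattern were sought for Crym, Ccn2, Tle4 and Pou3f1, as the distance between 14 log2 CPM values, each centred on the mean of its gene. The search covered 11472 genes that averaged 5 CPM or more, without predicted genes and clone names. A small distance means levels that run in parallel over the 14 libraries. It includes the offset between the OFL and naive sets, so a near gene may share little more than that offset. For Pou3f1 the nearest were Cntnap1 (0.348), Extl1 (0.352) and Rasd2 (0.413). For Tle4 they were Rell1 (0.364), Olfm3 (0.384) and Ncald (0.389), and for Crym Nrros (0.522), Hebp1 (0.541) and Hrk (0.547). The nearest to Ccn2 were Zfp420 (0.974), Atp8b1 (1.01) and Col12a1 (1.04). None of the 10 markers was among the 3 nearest of any of these 4 genes. Among the other members, looked at after their values were seen, Syt6 had Tle4 as its nearest gene (0.612) and Bcl11b as the third (0.665).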

How the data were processed

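RNA of the anterior cingulate cortex was sequenced in 14 libraries, 3 per strain after OFL and 4 per strain from naive mice. Per the submitters' processing notes reads were handled on the build GRCm38 with cutadapt 2.7 and TopHat2 2.1.1, beside CASAVA, HTSeq and edgeR in no stated order; the strand setting of the counting is not given in the sources used here. The authors deposited raw counts per Ensembl gene in 1 table for the OFL libraries and 1 for the naive libraries, and these counts are the input. The per-sample tables of CPM that they also deposited were not used. All 14 columns were mapped by title to a group.

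Names, positions and exon lengths came from GENCODE release M21 (GRCm38), which named 53360 of 53465 genes. Genes were tested with edgeR 4.0.16 in R 4.3.3: expression filter by group, TMM scaling, two-sided quasi-likelihood F-test, Benjamini-Hochberg adjustment over the genes tested, threshold 0.05. Strains were compared within the OFL and within the naive libraries, and OFL minus naive differences and the interaction came from 1 fit of all 14. The SE is the log2 difference divided by the square root of F. CPM levels use TMM factors over all 14 libraries, so they can deviate slightly from the fitted differences. The alternatives were other scaling factors, protein-coding genes only, other filters, DESeq2 1.42.0, a replicate block, a joint fit and leaving out each library. The scripts were tested on simulated counts, where the share of false calls came out above the nominal threshold.

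The 10 members and all gene lists were chosen with earlier results of these data known. All members are named in every comparison, at most 4 called genes of each other list by smallest p, and the 3 nearest patterns of 4 members. One gene of the striatal list is not reported here. Total counts of 13487311 to 14526253 (OFL) and 19073921 to 25780227 (naive) limit low genes such as Nxph4 most. Promoter windows came from RefSeq on GRCm38.p6.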

Additional observations from a re-analysis of the deposited data

How the results depend on the processing

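Over the members and the alternatives run, 118 of 126 values of the strain difference in OFL libraries, 146 of 159 in naive libraries, 138 of 139 of the OFL minus naive difference in AKR, 134 of 139 in B6N and 197 of 208 of the interaction kept their direction and their side of the threshold; the exceptions that end or add a call stand beside the results. The cause of the exceptions was not tested. The count of members called in the interaction was 1 with no count filter, and 0 to 1 as libraries were left out in turn. The count of all genes called between strains in OFL libraries ranged from 1934 to 3514 as libraries were left out. Values near 0 changed sign: the naive strain difference of Foxp2 was 0.0066 with upper-quartile factors and -0.14 to 0.17 as libraries were left out, that of Nxph4 was -0.17 to 0.32, and the interaction was -0.042 to 0.13 for Fezf2 and -0.18 to 0.20 for Ccn2. Replicate numbers are shared between the strains. The deviations of same-numbered libraries were correlated at 0.129, 0.0537 and -0.0754 in the OFL set and -0.0920, 0.00868, -0.00867 and 0.0139 in the naive set. So few values cannot show whether the numbers pair libraries, and the main fits treat them as unpaired. With the number as a block, 7 members were called between strains in OFL libraries, 4 in naive libraries and 0 in the interaction, and over all genes 3021, 6229 and 999. For OFL minus naive a block within condition is aliased, so 1 term common to both conditions was added after seeing the data, and 9 members in AKR and 9 in B6N were called. DESeq2 called 6 members in OFL and 3 in naive libraries between strains. Depth limits Nxph4 in both sets and Cplx3 in the OFL set.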
